A study of Mus musculus with 2 samples.

Results

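The mitochondrial chromosome of the mouse carries 37 annotated genes, chosen here as all genes whose name starts with mt-, out of 55536 Ensembl genes in the gene table. They are 13 mRNA genes for subunits of the respiratory chain, 2 rRNA genes for the mitochondrial ribosome and 22 tRNA genes. Total RNA of heart tissue was sequenced in 2 libraries of 1 group, replicates 1 and 2, from female B6CASTF1/J mice aged 18 to 20 months. B6CASTF1/J is a first-generation cross of the strains C57BL/6J and CAST/EiJ. The labels give 300 ng of RNA per library, removal of ribosomal RNA and ERCC spike-ins, synthetic RNAs added as a standard, and they give no treatment and no second group. The biosamples are separate but carry the same donor entry, so the spread between the libraries may be technical. With 1 group there is no contrast, and the values below are descriptions with a mean and SD over 2 libraries and no test.

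The mitochondrial chromosome is read on both strands into long RNAs that hold many genes in a row. In most places the tRNAs stand between the mRNAs and rRNAs, and enzymes that recognise the folded tRNAs cut at their ends, which sets the neighbouring RNAs free. The mitochondrial ribosome then uses these tRNAs to translate the mRNAs into core subunits of complexes I, III, IV and V, on which the beating heart relies for its ATP.

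Expected counts, estimated reads per gene with shared reads split among genes, summed to 35897521 in replicate 1 and 36926429 in replicate 2. Of these, the mitochondrial genes took 30.5% and 28.7%, and the 96 ERCC rows took 0.492% and 0.515%. The tissue label was checked on heart muscle markers, among which Myh6, the alpha cardiac myosin heavy chain, had 8594 and 8547 TPM (a share of transcripts, corrected for length). Hbb-bs, a haemoglobin of blood, was uneven, with 8658 and 4142 TPM.

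The mitochondrial tRNA genes are 59 to 75 nt long, with a median of 68.5 nt and a sum of 1501 nt. The sequences below show the ends of that range and both pairs of tRNAs that carry the same amino acid, leucine and serine. They are read 5′ to 3′ from the GENCODE M21 transcripts (mm10), with the anticodon, the letters that pair with the codon, in capitals. mt-Tl1 (chrM:2676-2750, plus strand) and mt-Tl2 (chrM:11671-11741, plus strand) carry leucine. mt-Ts1 (chrM:6870-6938, minus strand) and mt-Ts2 (chrM:11613-11671, plus strand) carry serine.
mt-Tl1: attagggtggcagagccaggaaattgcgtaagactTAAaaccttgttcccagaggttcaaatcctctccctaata
mt-Tl2: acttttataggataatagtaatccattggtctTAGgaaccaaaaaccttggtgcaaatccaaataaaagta
mt-Ts1: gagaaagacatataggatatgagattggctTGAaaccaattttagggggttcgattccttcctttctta
mt-Ts2: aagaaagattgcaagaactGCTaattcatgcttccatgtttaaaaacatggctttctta

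mt-Tl1 is the longest of the 22 and mt-Ts2 the shortest. In mt-Ts2 the anticodon starts at base 20, counted from 1 at the 5′ end, while in mt-Tl1 it starts at base 36, the latest start among the 22. This tRNA for the AGY codons of serine is known to lack the D arm, one of the hairpins of the usual cloverleaf. The anticodon was found exactly once in the searched window of each of the 22 tRNAs. Only 1 gene, mt-Ty, ends in the letters CCA. These letters are not an acceptor end, since the ttttacc before its last base can pair with the ggtaaaa at its start. The acceptor end has the same letters, carries the amino acid and is added by the enzyme Trnt1 after cutting.

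All 22 tRNA genes were listed at 0 in both libraries. This held for the expected counts, for their posterior mean counts and for the estimated counts of the kallisto-layout transcript table, a second quantification of the same libraries. Both tables leave short rows without counts. In the RSEM-layout gene table the effective length, the number of places where a read can start, was 0 for every tRNA, since 99 nt are taken off the annotated length. Of the 2398 Ensembl rows of up to 99 nt, 0 had a count in either library, and the shortest row with a count was 104 nt long in replicate 1 and 100 nt in replicate 2. The 26185 rows of that length with numeric identifiers had no counts either.

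In the kallisto-layout table the tRNAs had effective lengths of 20.7 to 23.8 nt in replicate 1 and 20.0 to 22.8 nt in replicate 2, so places for a read to start remained. None of its 2451 rows of up to 99 nt and none of its 4787 rows of 100 to 199 nt had a count. The shortest transcript with a count there was 268 nt long in replicate 1 and 269 nt in replicate 2. These zeros are shared by all rows of that size, so the tables give no level for the tRNAs, in either direction. Reads that span a tRNA and its neighbour in an uncut precursor have no row of their own in these tables.

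Sequence shared with other transcripts was looked for in 31-nt words on both strands. For 21 of the 22 tRNAs no word occurred in any other annotated transcript. The exception was mt-Ty (chrM:5260-5326, minus strand), the tRNA for tyrosine. It shared 4 words, which cover the 34 bases shown in capitals, with a transcript of Cep295, a nuclear gene for a protein of the centriole.
mt-Ty: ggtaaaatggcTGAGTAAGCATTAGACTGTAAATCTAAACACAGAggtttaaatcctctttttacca

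The whole Cep295 gene had 249 and 321 expected counts, or 2.22 and 1.89 TPM in replicates 1 and 2. The shared words lie in a transcript with a retained intron and are 4 of its 6124 words. That transcript had 24.2 and 45.8 estimated counts in the kallisto-layout table. Its reads were not separated here from reads of mt-Ty.

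**Figure D1:**
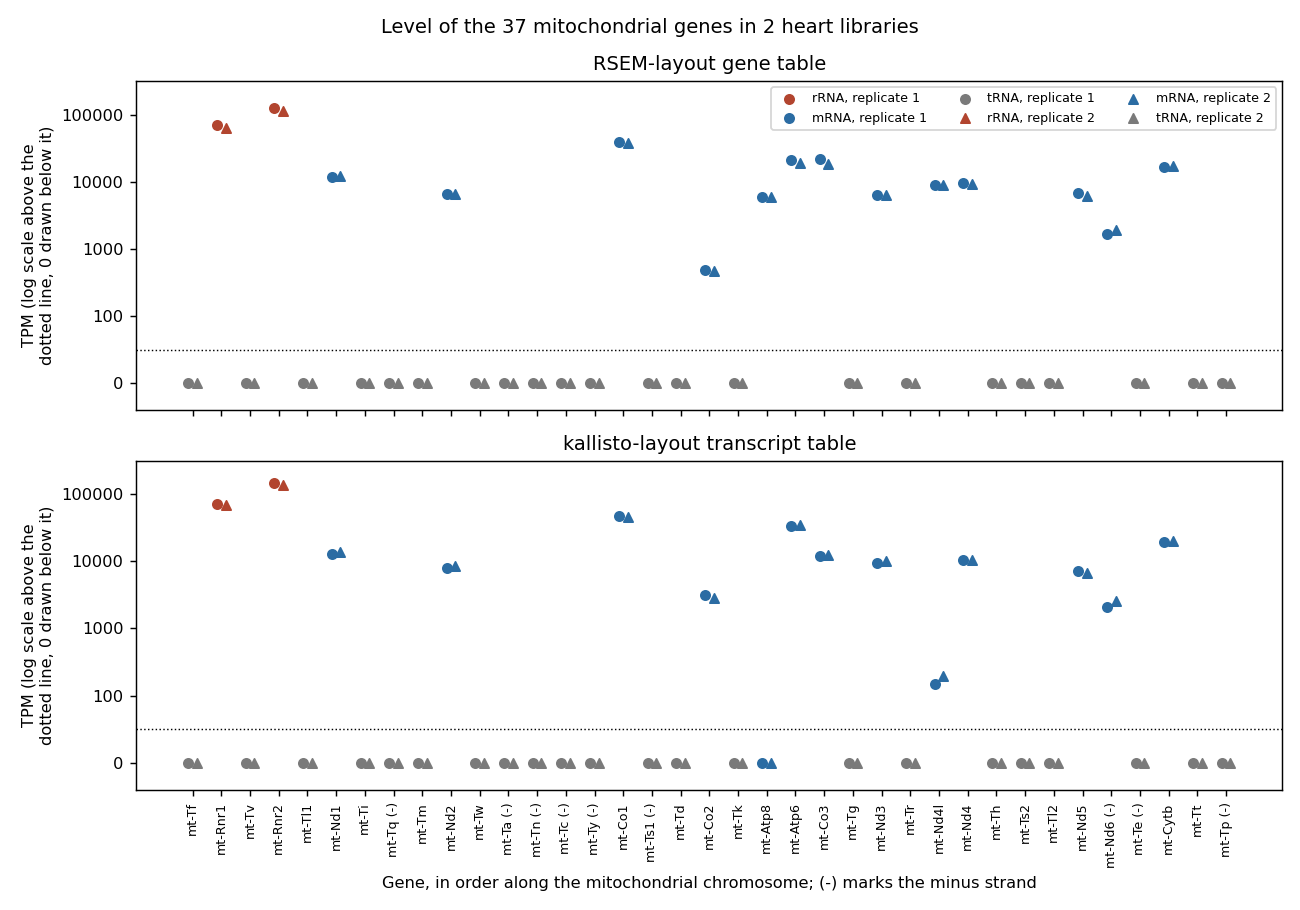
TPM of the 37 genes in their order along the mitochondrial chromosome, in the RSEM-layout table (top) and the kallisto-layout table (bottom), with circles for replicate 1 and triangles for replicate 2 on a log scale, and values of 0 drawn below the dotted line. The 22 tRNAs lie at 0 in both tables, mt-Atp8 at 0 in the lower one, and the rRNAs are highest in both.

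Detection at 1 TPM or more in both libraries was reached by 15 of the 37 genes, all 13 mRNAs and both rRNAs, against 21.6% of all Ensembl genes. Detected by the kallisto-layout values were 14 of the 37, against 21.8% of genes. The gene that was lost is mt-Atp8, the shortest mRNA gene with 204 nt.

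Short mitochondrial mRNAs had fewer counts in the kallisto-layout table than in the RSEM-layout table. mt-Atp8, a small subunit of ATP synthase, had 17270 and 18580 expected counts, and 0 in both libraries of the kallisto-layout table. mt-Nd4l (297 nt), a small membrane subunit of complex I, had 49987 and 52987 expected counts against 291 and 370. mt-Nd3 (348 nt), also of complex I, had 44886 and 46292 against 23815 and 24609.

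For mt-Nd6 (519 nt), the kallisto-layout count was 0.63 of the expected count in replicate 1 and 0.645 in replicate 2. It was 0.82 and 0.827 for mt-Rnr1, 0.867 and 0.865 for mt-Nd1, 0.981 and 0.985 for mt-Cytb, 1.08 in both for mt-Co1 and 1.08 and 1.09 for mt-Rnr2. So the ratio was below 1 for every measured mitochondrial gene under 600 nt, and near 1 for mitochondrial genes over 1000 nt. The genes of 600 to 799 nt stood apart, with 4.26 and 3.84 for mt-Co2, 1.07 and 1.18 for mt-Atp6, and 0.397 and 0.474 for mt-Co3. Each of these 3 has a nuclear copy, described further on.

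Genes outside the mitochondrial chromosome followed a like course at the shortest and longest lengths, but not an even one in between. Among 1087 other genes with 1 transcript and at least 100 expected counts in both libraries, all 25 of 100 to 199 nt were at 0 in both libraries of the kallisto-layout table. So were 19 of 20 genes of 200 to 299 nt, the range of mt-Atp8 and mt-Nd4l, and 18 of 35 genes of 300 to 399 nt, the range of mt-Nd3. At 300 to 399 nt the median ratio was 0 in both libraries, against 0.531 and 0.532 for mt-Nd3. It was 0.338 and 0.335 at 400 to 499 nt. At 500 to 599 nt it was 0.129 and 0.161, against 0.63 and 0.645 for mt-Nd6. From 1500 nt on, 0 of 101 and 0 of 563 genes were at 0, with median ratios of 0.989 and 1.06 in replicate 1. Several short genes had counts equal to each other and are not separate observations. Sharing of reads among like genes was not separated from length. Levels of mt-Atp8, mt-Nd4l and mt-Nd3 are therefore taken below from the RSEM-layout table, with this difference beside them.

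**Figure D2:**
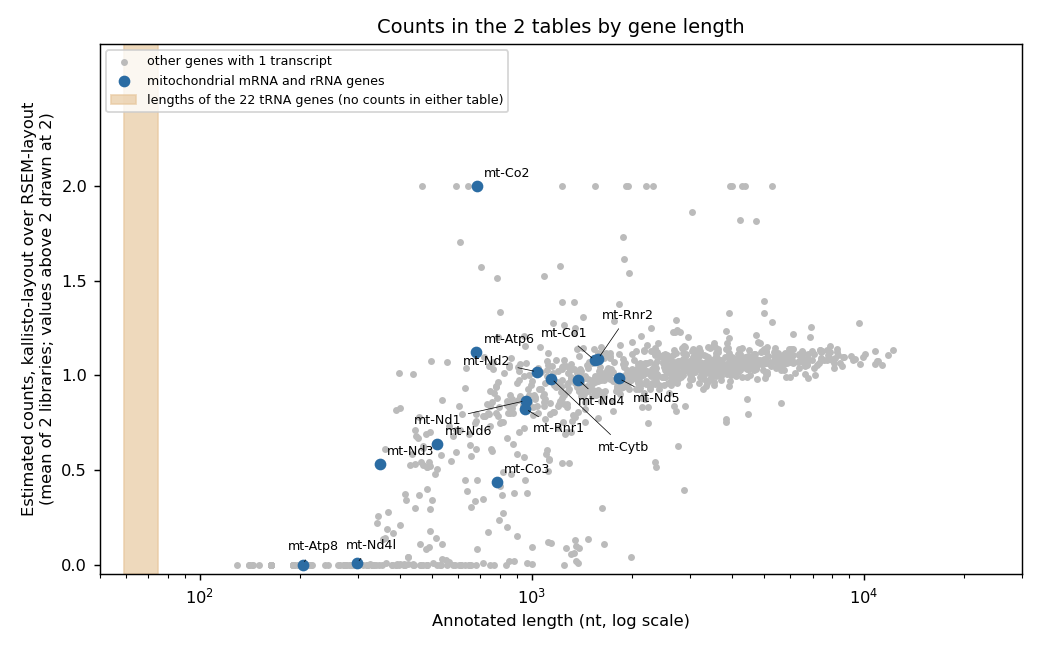
Ratio of counts in the kallisto-layout table over counts in the RSEM-layout table (mean of 2 libraries, values above 2 drawn at 2) against annotated length on a log scale, for 15 mitochondrial genes (blue) and 1087 other genes with 1 transcript (grey), with the tRNA lengths shaded. The ratios lie at or near 0 for mt-Atp8 and mt-Nd4l and near 1 for mitochondrial genes over 1000 nt, and mt-Co2 is drawn at 2.

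The rRNAs of the mitochondrial ribosome were the most abundant of the 37 genes, although the libraries were depleted of ribosomal RNA. mt-Rnr2, the 16S rRNA of the large subunit (chrM:1094-2675), had 124548 and 112167 TPM. mt-Rnr1, the 12S rRNA of the small subunit (chrM:70-1024), had 70157 and 63959 TPM. Their values did not overlap, and the ratio of mt-Rnr2 over mt-Rnr1 was 1.78 in replicate 1 and 1.75 in replicate 2 (1.76 ± 0.015, SD, n = 2).

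By kallisto-layout TPM that ratio was 2.02 ± 0.020. mt-Rnr2 exceeded mt-Nd1, the mRNA gene that follows it after mt-Tl1, by 10.4-fold in replicate 1 and 9.30-fold in replicate 2. How far the depletion removed these rRNAs was not tested, so the ratios describe depleted RNA.

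The 7 complex I mRNAs, for subunits of NADH dehydrogenase, held 33.7% ± 1.02 of the mitochondrial mRNA TPM. mt-Nd1 (chrM:2751-3707) had 11965 and 12061 TPM, mt-Nd4 (chrM:10167-11544) had 9551 and 9411 TPM, and mt-Nd4l (chrM:9877-10173) had 9042 and 9095 TPM. mt-Nd2 (chrM:3914-4951) had 6516 and 6588 TPM, mt-Nd3 (chrM:9459-9806) had 6456 and 6318 TPM, and mt-Nd5 (chrM:11742-13565) had 6855 and 6048 TPM. mt-Nd6 (chrM:13552-14070), the only mRNA gene on the minus strand, was lowest of the 7 with 1687 and 1935 TPM.

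mt-Nd1, mt-Nd4 and mt-Nd4l kept apart from each other in both libraries, while the values of mt-Nd5 enclosed those of mt-Nd2 and mt-Nd3. mt-Nd4l and mt-Nd4 overlap by 7 nt and are known to stay on 1 mRNA. Their TPM differed little, with a ratio of mt-Nd4 over mt-Nd4l of 1.06 and 1.03 in the RSEM-layout table. By kallisto-layout TPM it was 70.2 and 53.9, beside the low counts of mt-Nd4l given above.

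Complex III has 1 mitochondrial gene, mt-Cytb (chrM:14145-15288), for cytochrome b, which passes electrons from ubiquinol. It had 16828 and 16900 TPM and held 11.0% ± 0.457 of the mitochondrial mRNA TPM. Its log2 ratio between the libraries was 0.0062, the smallest in size of the 15 measured genes in the RSEM-layout table, and 0.070 in the kallisto-layout table, where that of mt-Nd4 was smallest with 0.0019.

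Complex IV mRNAs, for cytochrome c oxidase, held 38.4% ± 1.20 and complex V mRNAs, for ATP synthase, 16.9% ± 0.271 of mitochondrial mRNA TPM. mt-Co1 (chrM:5328-6872) had 39426 and 37542 TPM, mt-Co3 (chrM:8607-9390) 22101 and 18178 TPM, and mt-Co2 (chrM:7013-7696) 489 and 468 TPM. mt-Atp6 (chrM:7927-8607) had 21039 and 18916 TPM and mt-Atp8 (chrM:7766-7969) 5891 and 6014 TPM. The values of mt-Co3 and mt-Atp6 overlapped, and both lay above mt-Cytb in these values. The low value of mt-Co2 stands against the other catalytic core subunit, mt-Co1, and rests on how reads were shared with a nuclear copy, as follows.

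Counts were also listed for nuclear copies of several mitochondrial mRNAs. In all, 23 nuclear genes shared at least 1 word with a mitochondrial gene, and 7 of them held 50% or more of the words of that gene or of their own. These 7, annotated as unprocessed pseudogenes, lie within 4663 nt on the minus strand of chromosome 1, from 24611535 to 24616197. They follow the order of the mitochondrial genes from mt-Co1 to mt-Nd4, and in 5 of 6 neighbouring pairs their 5′ ends were exactly as far apart as in the mitochondrial chromosome. The remaining pair, Gm28438 and Gm10222, was 419 nt apart against 418 nt. The matching mitochondrial stretch holds 5 whole tRNA genes, mt-Td, mt-Tk, mt-Tg, mt-Tr and mt-Ts1, and no nuclear transcript of the annotation shares a word with any of them.

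The copies of mt-Co2, mt-Co3, mt-Atp6 and mt-Nd4l differ from their mitochondrial genes only in lacking the last bases. The copies of mt-Co1, mt-Nd3 and mt-Nd4 differ in other ways, given further on. The last 40 bases of mt-Co2 are shown with those of Gm28661 (chr1:24614885-24615565, minus strand), and those of mt-Co3 with Gm28437 (chr1:24613189-24613971, minus strand), because these letters are all that tells them apart. Capitals mark the bases that the annotated copy lacks.
mt-Co2: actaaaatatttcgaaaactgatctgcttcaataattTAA
Gm28661: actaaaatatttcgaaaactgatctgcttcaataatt
mt-Co3: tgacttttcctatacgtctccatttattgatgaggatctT
Gm28437: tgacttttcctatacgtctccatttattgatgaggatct

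Over the rest of their length Gm28661, Gm28437 and Gm10925, the copy of mt-Atp6, had 0 substitutions. Of the 585 windows of 100 nt in mt-Co2, 3 are not in Gm28661. The number is 1 of 685 for mt-Co3 and 3 of 582 for mt-Atp6. Gm29216 (chr1:24615706-24616197, minus strand) matches bases 1054 to 1545 of mt-Co1 with 6 substitutions, all between T1056A and A1066T, with the mitochondrial base first and positions counted from the gene's first base. Of the windows of mt-Co1, 73.7% are not in its copy.

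The split of reads between gene and copy differed from pair to pair. Gm28661 took 98.5% of the summed expected counts of the pair in replicate 1 and 98.6% in replicate 2, leaving mt-Co2 7980 and 8054 of 549711 and 561390 counts. Gm10925 took 39.0% and 45.6%, and Gm28437 took 34.1% and 42.0%. Gm29216 took 10.5% and 9.96%. Among these 4 pairs the split was thus most in favour of the copy for mt-Co2, which has almost no letters to separate it, and the pairs of mt-Atp6 and mt-Co3, with as few letters, were shared more evenly.

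Other estimates of the same reads gave other splits. As posterior mean counts, Gm28661 took 90.8% and 89.7%, Gm10925 took 43.0% and 47.3%, and Gm28437 took 47.2% and 48.6%. In the kallisto-layout table Gm28661 took 92.6% and 93.5% and Gm28437 took 68.6% and 67.4%, while Gm10925 had 0.029 and 1.96 counts. For Gm29216 the posterior mean shares were 10.5% and 9.96%, as before, and the kallisto-layout shares 1.98% and 1.66%. So mt-Atp6 kept nearly all counts of its pair in the kallisto-layout table, and mt-Co3 less than its copy. For the pair of mt-Co2, all 3 estimates gave the copy 89.7% or more.

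The authors' deposited intervals for the posterior mean TPM were wide for the same genes. The interval of mt-Co2 ran from 2028 to 3984 TPM in replicate 1 and from 2289 to 4390 TPM in replicate 2, or 64.6% and 63.9% of the posterior mean. The widths were 9.79% and 12.0% for mt-Co3 and 8.64% and 11.2% for mt-Atp6. For mt-Co1 they were 0.394% and 0.385%, and for mt-Nd4l, which has a copy without the last 3 bases, 4.53% and 5.30%. Both values of mt-Co2 in the gene table, 489 and 468 TPM, lie below those intervals, which belong to the posterior mean and not to the listed TPM.

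**Figure D3:**
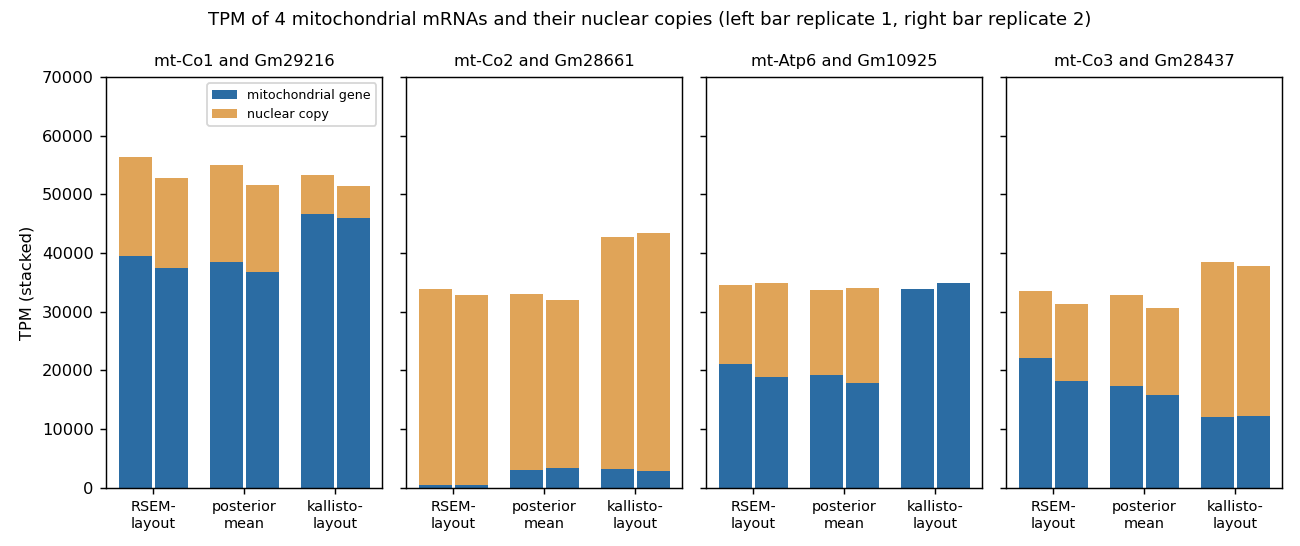
Stacked TPM of 4 mitochondrial mRNAs (blue) and their copies on chromosome 1 (orange) in the RSEM-layout table, as its posterior mean and in the kallisto-layout table, with 1 bar for each library. Relative to their size, the summed heights vary less between estimates than the blue parts, which for mt-Co2 reach 468 to 3291 TPM of sums from 32028 to 43502 TPM.

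Adding each copy to its gene changed the order of the mRNAs. mt-Co2 with Gm28661 had 33826 and 32779 TPM and moved from rank 15 to rank 5 of the 15 measured genes. mt-Co1 with its copy had 56428 and 52824 TPM, mt-Atp6 34533 and 34873 TPM, and mt-Co3 33573 and 31342 TPM. The copy of mt-Co1 covers only part of the gene, so its TPM is per its own shorter length. It raised the TPM of mt-Co1 by 43.1% and 40.7%, but the expected counts by 11.7% and 11.1%, and the sum in TPM overstates a level of mt-Co1. In these sums mt-Co2 and mt-Co3 overlapped, and mt-Atp6 lay above both. The order differed in the kallisto-layout table, where mt-Co2 with its copy had 42765 and 43502 TPM, mt-Co3 38480 and 37771 TPM, and mt-Atp6 was lowest of the 3 with 33882 and 34873 TPM. In RSEM-layout TPM with these sums, that of mt-Co1 included, complex IV held 52.4% ± 0.995 of mitochondrial mRNA TPM, complex I 22.5% ± 0.294, complex V 17.7% ± 0.522 and complex III 7.34% ± 0.180. Which molecules came from the nuclear copies cannot be told apart with these tables.

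The balance of rRNA and mRNA in TPM turned with the copies, but not in expected counts. Summed rRNA TPM exceeded summed mRNA TPM by 0.30 on the log2 scale in replicate 1 and by 0.24 in replicate 2, with a mean of 0.27. With the copies added to the mRNAs the mean was -0.31 in RSEM-layout TPM and -0.17 in kallisto-layout TPM, so that mRNA exceeded rRNA. In expected counts rRNA exceeded mRNA by 0.70 without the copies and by 0.32 with them.

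The other 3 copies, named after their values were seen, had 0 expected counts in both libraries. Gm10222 is a copy of mt-Nd4l without its last 3 bases, Gm28438 of mt-Nd3 with the substitution T3C, and Gm28439 of the first 876 bases of mt-Nd4. As posterior mean counts, Gm10222 took 3.28% and 3.20% of its pair. In the kallisto-layout table Gm28439 alone of the 3 had counts, 12841 and 19535, or 3.67% and 5.40% of its pair.

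The pair of mt-Atp8 and mt-Atp6 shows both length and copies at once. The genes overlap by 43 nt and are known to be read from 1 mRNA. mt-Atp8 is shown whole, because it is the one measured gene that 1 of the tables leaves at 0, with the letters it shares with mt-Atp6 in capitals.
mt-Atp8: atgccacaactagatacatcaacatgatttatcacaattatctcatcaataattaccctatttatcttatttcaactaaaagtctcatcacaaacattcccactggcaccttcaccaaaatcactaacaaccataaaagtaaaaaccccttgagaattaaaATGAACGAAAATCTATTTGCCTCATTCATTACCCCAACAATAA

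mt-Atp6 exceeded mt-Atp8 by 3.57-fold in replicate 1 and 3.15-fold in replicate 2. With Gm10925 added to mt-Atp6 the ratio was 5.86 and 5.80. The spread of the ratio was thus 0.301 without and 0.045 with the copy (SD, n = 2).

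The tRNAs mark most borders of the other genes. Of 36 junctions between neighbouring genes, 12 abut, 9 overlap and 15 have a gap, which is 1 to 5 nt in 14 of them. The largest gap, 32 nt between mt-Tn and mt-Tc, is where replication of the second strand is known to start. The genes cover 15365 of the first 15422 nt of the chromosome, up to the end of mt-Tp. Next to mt-Tp comes the control region, which has no gene.

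Of the 30 ends of mRNA and rRNA genes, 22 lie next to a tRNA gene. The 8 ends without one belong to 4 junctions, mt-Atp8 with mt-Atp6, mt-Atp6 with mt-Co3 (an overlap of 1 nt), mt-Nd4l with mt-Nd4, and mt-Nd5 with mt-Nd6. At the last of these the overlap is 14 nt and the genes face each other on opposite strands. The tRNA genes also overlap. mt-Ti and mt-Tq share 3 nt on opposite strands, mt-Co1 and mt-Ts1 share 3 nt on opposite strands, and mt-Ts2 and mt-Tl2 share 1 nt on the same strand. On the same strand, mt-Nd1 also shares 2 nt with mt-Ti, and mt-Nd2 shares 2 nt with mt-Tw.

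Several tRNAs stand in a row in these clusters: mt-Ti, mt-Tq and mt-Tm before mt-Nd2, then mt-Tw, mt-Ta, mt-Tn, mt-Tc and mt-Ty before mt-Co1, and mt-Th, mt-Ts2 and mt-Tl2 before mt-Nd5. The mRNAs that follow them differ widely in level, with 6516 and 6588 TPM for mt-Nd2, 39426 and 37542 TPM for mt-Co1, and 6855 and 6048 TPM for mt-Nd5. So a tRNA cluster in front went with both low and high mRNA levels.

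Levels of the plus-strand mRNAs showed little relation to their distance from the start of the chromosome. Over the 12 genes Spearman's rho of mean TPM with the start position was -0.014 in the RSEM-layout table, -0.091 in the kallisto-layout table and -0.22 with the copies added. These are descriptions over genes that share 2 libraries and in part overlap. The mRNAs at either end, mt-Nd1 with 12013 ± 68.0 TPM and mt-Cytb with 16864 ± 51.2 TPM, were both in the middle of the order.

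By strand, 28 genes lie on the plus strand and 9 on the minus strand, which are mt-Nd6 and 8 tRNA genes. Since the tRNAs have no level, mt-Nd6 stands alone for the minus strand. It gave 0.478% of mitochondrial TPM in replicate 1 and 0.594% in replicate 2 (0.536% ± 0.0818, SD, n = 2). mt-Nd5, its convergent neighbour, exceeded mt-Nd6 by 4.06-fold and 3.13-fold, and mt-Cytb exceeded it by 9.98-fold and 8.73-fold. The strand setting used in counting is not given in the sources used here, and 14 nt of mt-Nd6 also belong to mt-Nd5.

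The minus-strand genes share a base composition that the choice by name did not use. mt-Nd6 is 28.1% G, while the 12 plus-strand mRNAs are 5.88% to 16.1% G. Among the tRNAs the median was 23.0% G on the minus strand, with a range from 17.9% to 29.9%. On the plus strand it was 15.7%, with a range from 7.14% to 21.3%, so the tRNA ranges overlapped. The share of G and C together ran from 17.1% in mt-Td to 44.9% in mt-Tm.

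Gene ends differed as well. As annotated, 10 of the 13 mRNAs end in a complete stop codon. mt-Co3, mt-Nd4 and mt-Cytb end in a single T, to which the poly(A) tail is known to add the rest of the stop. Of the 10, mt-Nd1 and mt-Nd2 share the last 2 bases of their stop with the same-strand tRNA genes mt-Ti and mt-Tw. mt-Atp6 shares the last base of its stop with mt-Co3. How these RNAs end after cutting was not tested. The first codon is ATG in 9 of the 13. The others start with GTG (mt-Nd1), ATA (mt-Nd2), ATT (mt-Nd3) and ATC (mt-Nd5).

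In every measured mitochondrial gene the libraries were less than 1.5-fold apart, as they were in most genes of like level. Ratios are of TPM + 0.1, replicate 2 over replicate 1. Of the 15 measured genes, 0 were 1.5-fold or more apart, against 11.3% of all genes with a mean of 1 TPM or more, and 4.55% of the genes with a mean of 1000 TPM or more. The genes at 1000 TPM or more include all of the 15 but mt-Co2. By the kallisto-layout values 0 of 14 were apart, against 14% of genes with a mean of 1 TPM or more, a share not matched for level. The median size of the log2 ratio was 0.062 for the 15 genes, 0.084 for genes at 1000 TPM or more and 0.17 for all genes at 1 TPM or more. The first of these is the value of mt-Co2, which rests on the split of reads with its copy. Counting error alone was at most 1.12% for a single value of any of the 15. It leaves out how reads were shared with the nuclear copies. For mt-Co2 the deposited intervals were 64.6% and 63.9% of the posterior mean wide in replicates 1 and 2.

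mt-Co3 was furthest apart with a log2 ratio of -0.28, followed by mt-Nd6 with 0.20 and mt-Nd5 with -0.18. With its copy added mt-Co3 had -0.099, and in the kallisto-layout table, without the copy, it had 0.026. mt-Nd6 was higher in replicate 2 and mt-Nd5 higher in replicate 1 in both tables, with 0.28 and -0.11 in the kallisto-layout table. The rRNAs were both lower in replicate 2, with -0.13 for mt-Rnr1 and -0.15 for mt-Rnr2.

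In all, 9 of 15 genes were higher in replicate 1 and 6 in replicate 2. By kallisto-layout TPM it was 5 and 9 of 14, so the direction over all genes depended on the table. The median log2 ratio of the 13 mRNAs was -0.021, and 0.053 in the kallisto-layout table.

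**Figure D4:**
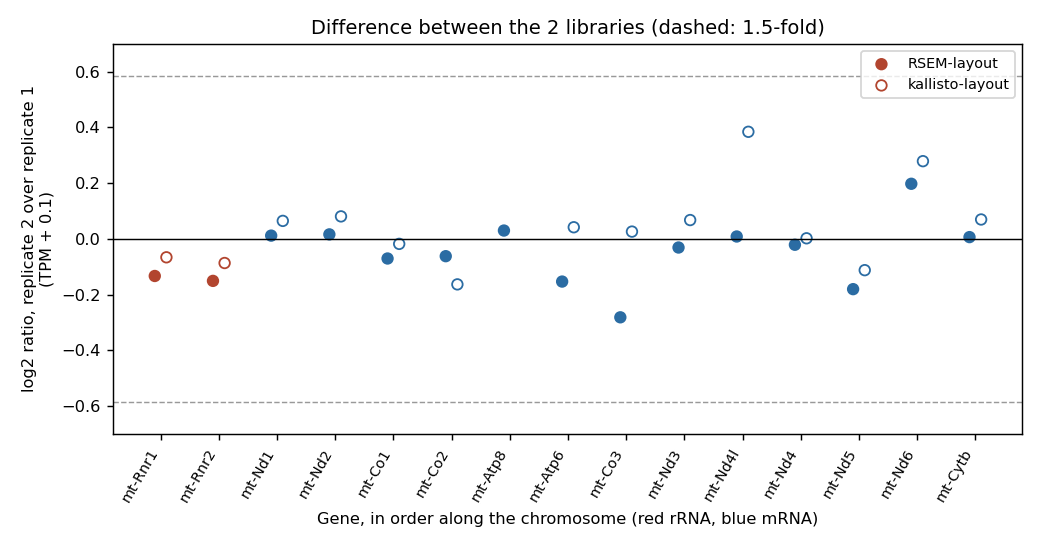
Log2 ratio of TPM, replicate 2 over replicate 1, for the 15 measured genes in their order along the chromosome, with filled circles for the RSEM-layout and open circles for the kallisto-layout table and dashed lines at 1.5-fold. All points lie within the dashed lines, with mt-Co3 lowest at -0.28 in the first table and mt-Nd4l highest in the second.

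Though the tRNAs have no level, the mRNA levels give how often each tRNA's codons occur in the mitochondrial mRNA. Without the 10 complete stops, the 13 mRNAs hold 3790 codons. Each of these is read by 1 of the 22 tRNAs in the mitochondrial code. Weighted by the TPM of the mRNAs, mt-Tl2, for the CUN codons of leucine, reads the largest share with 11.1% in both libraries. It is followed by mt-Ti for isoleucine with 9.14%, mt-Tt for threonine with 7.80%, mt-Tf for phenylalanine with 7.23% and mt-Ta for alanine with 6.91% (means of 2 libraries).

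At the other end mt-Tc, for cysteine, reads 0.488% and mt-Ts2 1.04%. The isoacceptors differ. mt-Tl1 reads 3.18% against the 11.1% of mt-Tl2, and mt-Ts1 reads 6.17% against the 1.04% of mt-Ts2. Unweighted over the codons of the 13 genes the shares were 11.7% for mt-Tl2, 3.80% for mt-Tl1, 6.33% for mt-Ts1 and 1.29% for mt-Ts2, so the order within each pair does not rest on the mRNA levels.

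The 8 minus-strand tRNAs, 36.4% of the tRNA genes, read 30.1% ± 0.046 of the codons weighted by TPM, and 30.7% unweighted. With the nuclear copies added the share was 30.3%, and 29.8% by the kallisto-layout values. In mt-Nd6 alone it was 24.4%, and mt-Tg for glycine read 15.1% of the codons of mt-Nd6 against 5.59% over all 13 mRNAs. The summed minus-strand share thus moved little with the table or the copies, while some single tRNAs moved more. With the copies added mt-Te went from 1.99% to 2.38% and mt-Tl1 from 3.18% to 2.90%, while mt-Tl2 stayed at 11.1%. By the kallisto-layout values mt-Tc went from 0.488% to 0.418%. The codon shares say nothing of how much tRNA was present.

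**Figure D5:**
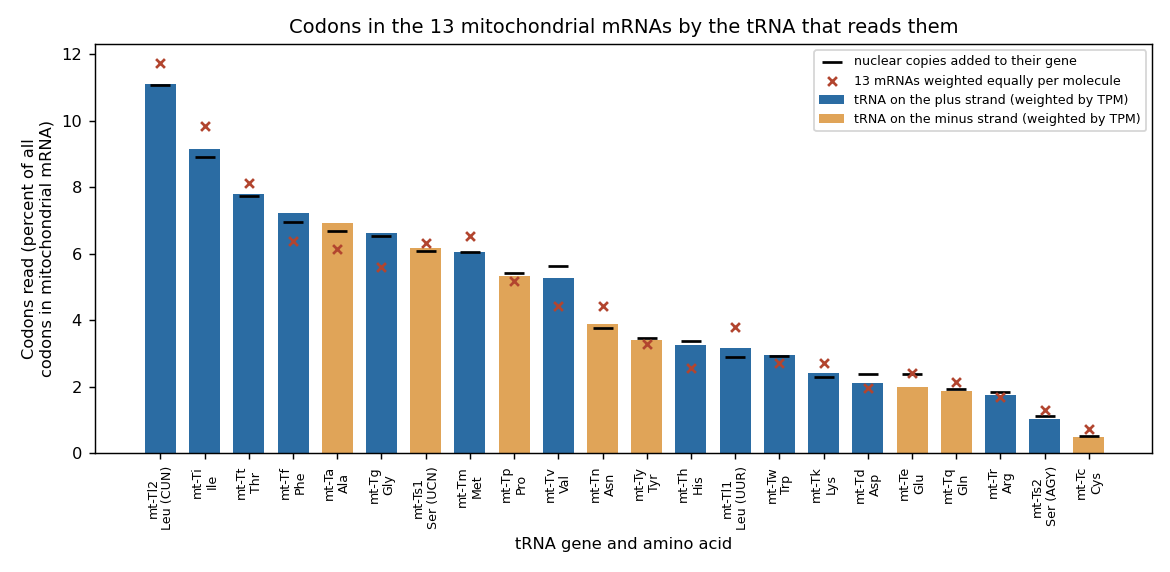
Percent of codons in the mitochondrial mRNAs read by each of the 22 tRNAs, as bars weighted by mean TPM (blue plus strand, orange minus strand), as lines with nuclear copies added and as crosses without weights. mt-Tl2 is highest at 11.1% and mt-Tc lowest at 0.488%, and the 8 minus-strand tRNAs stand at ranks across the order.

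The nuclear genes that make, cut, modify and charge the mitochondrial tRNAs were nearly all detected. All 22 genes of the list of mitochondrial aminoacyl-tRNA synthetases, which load amino acids on tRNAs, and of the enzymes that complete glutaminyl-tRNA reached 1 TPM in each library, against 21.6% of all genes. Their median was 12.0 and 10.4 TPM in replicates 1 and 2 (11.2 ± 1.11, SD, n = 2). Kars, which charges lysine in cytosol and mitochondria, was highest in the RSEM-layout table with 42.5 and 43.5 TPM, and Fars2, for phenylalanine, followed with 34.9 and 31.1 TPM. Pars2, for proline, was lowest with 2.10 and 1.85 TPM. In the kallisto-layout table the highest was Lars2, for leucine, with 85.6 and 103 TPM against 24.8 and 31.1 TPM in the RSEM-layout table, and Kars had 51.0 and 53.7 TPM. Lars2 is named after its values were seen.

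The enzymes that cut and finish the tRNAs, 5 of 5 detected, had a median of 6.44 and 7.66 TPM. Hsd17b10, a subunit of the mitochondrial RNase P that also breaks down isoleucine, had 99.6 and 98.8 TPM, and Trnt1, which adds the CCA end, had 13.9 and 15.3 TPM. Prorp, the nuclease subunit of RNase P, was lowest with 3.82 and 4.17 TPM. The subunits of 1 complex thus stood at quite different mRNA levels.

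Of 12 genes that modify mitochondrial tRNAs, 11 reached 1 TPM in each library, and the median of the 12 was 7.86 and 7.61 TPM. The highest were Trmt5, which methylates the base next to the anticodon, with 22.6 and 22.1 TPM and Osgepl1, which acts on the tRNAs that read ANN codons, with 21.6 and 22.5 TPM, and their values overlapped. Trmt61b, a methyltransferase, was lowest with 1.28 and 0.92 TPM, but had 1.72 and 1.29 TPM in the kallisto-layout table, where all 46 genes of the 5 lists reached 1 TPM in each library, against 21.8% of genes.

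The 4 genes of mitochondrial transcription had a median of 24.5 and 22.4 TPM. The highest were Tfb2m, which opens the promoter, with 29.8 and 27.1 TPM and Tfam, which binds and bends the DNA, with 30.5 and 25.5 TPM, and the lowest was Tefm, an elongation factor, with 12.0 and 11.2 TPM. The 3 genes of mitochondrial mRNA stability had a median of 50.7 and 52.2 TPM. Slirp and Lrpprc, which bind mitochondrial mRNAs as a complex, had 64.7 and 64.4 TPM and 50.7 and 52.2 TPM, and Mtpap, the poly(A) polymerase, had 8.95 and 8.25 TPM. In these 5 lists 0 genes were 1.5-fold or more apart between the libraries, against the 11.3% of all genes given above. By kallisto-layout TPM 3 of the 46 were, Vars2 with 10.7 and 16.5 TPM, Mtfmt with 2.04 and 3.29 TPM and Pars2 with 1.87 and 2.86 TPM, against 14% of genes. Vars2 and Mtfmt are named after their values were seen.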

How the data were processed

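Levels of the mitochondrial genes were taken from tables deposited for 2 heart RNA-seq libraries. The expected counts and estimated counts were deposited by the authors as reads per gene or transcript, with shared reads split among genes. TPM was deposited by the authors per effective length over all rows of a table, once by maximum likelihood and once as the mean of a posterior distribution. The interval bounds, a signal per gene on the TPM scale, were deposited by the authors and belong to the posterior mean. Per the deposited readme, the tables refer to mm10 and GENCODE M21, and they have the column layouts of RSEM and kallisto per the file headers. The programs, their versions and the strand setting were not given in the sources used here.

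Genes were chosen by name. Positions and sequences came from the GENCODE M21 annotation and transcripts of the same build. Words of 31 nt of the mitochondrial genes were looked for in all other transcripts on both strands. Windows of 100 nt were compared only between a mitochondrial gene and its copy, on the same strand. A nuclear gene holding 50% or more of the words of a member or of itself was taken as a copy, and those at 100 TPM or more in a library were named. The anticodon was looked for in the middle of each tRNA after a C or T and before an A or G. Codons were assigned by the vertebrate mitochondrial code. Of each nuclear list, the 2 highest and the lowest gene by mean TPM and those under 1 TPM were named. Every list symbol was matched, Prorp through an older symbol in a RefSeq gene table. The members and lists were chosen with earlier results of these data known.

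Ratios used a pseudocount of 0.1 TPM, and a gene counted as apart at 1.5-fold, or measured at a mean of 1 TPM or more. With 1 group no test was made. Alternatives were the kallisto-layout table, posterior means, expected counts, copies added, other scalings, pseudocounts, filters and thresholds, and leaving out a library. Calculations were tested on simulated data and used Python 3.11.15, pandas 2.3.3, numpy 2.4.6 and scipy 1.17.1, and figures matplotlib 3.10.9.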

Additional observations from a re-analysis of the deposited data

How the results depend on the processing

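Of 45 alternative values, 19 belong to results at 0 in every setting and 6 leave out a library, which with 2 libraries always stays within their spread, so neither shows stability. Of the other 20, 6 stayed within that spread and 14 moved beyond it, 5 of these with a change of sign. The share of TPM held by the 37 genes was 33.9%, but 38.0% in the kallisto-layout table, 29.6% by expected counts and 41.5% with copies added, and 32.6% to 35.3% with a library left out. The minus-strand share of mitochondrial TPM was 0.536%, but 0.203% by expected counts and 0.438% with copies added, and 0.478% to 0.594% with a library left out. The log2 ratio of rRNA over mRNA was 0.27, but 0.35 in the kallisto-layout table, 0.70 by expected counts and -0.31, the opposite sign, with copies added, and 0.24 to 0.30 with a library left out. The median log2 ratio of the mRNAs between the libraries was -0.021, but 0.053 in the kallisto-layout table and 0.0079 with posterior means. Chosen after seeing the data, the log2 ratio of rRNA over mRNA with copies added was 0.32 by expected counts and -0.17 in the kallisto-layout table. Also chosen then, the median log2 ratio of the mRNAs was 0.0062 with copies added and -0.054 per ERCC count. The causes of these differences were not tested, apart from those built into the alternatives: expected counts weight long genes more, and adding copies raises the mRNA sum. The count of detected tRNAs and the count of genes 1.5-fold apart were 0 in every alternative run. Neither table can show tRNA levels at this length.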

Other observations

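Beside the 7 copies on chromosome 1, 16 other nuclear genes shared at least 1 word of 31 nt with a mitochondrial gene. In the RSEM-layout table they had at most 13.9 TPM in a library, and 3 of the 16 reached 1 TPM in each library. In the kallisto-layout table the highest value was 31.1 TPM, and 9 of the 16 reached 1 TPM in each library.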
